A study of Mus musculus with 6 samples.

Results

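The RNA levels of 10 erythroid transcription factor genes were compared in fetal liver erythroblasts cultured with and without carbon dots. The genes were chosen by symbol as the erythroid factor complex and its partners (Gata1, Gata2, Klf1, Tal1, Zfpm1, Nfe2, Lmo2, Ldb1, Gfi1b and Bcl11a), and all 10 were present among the 17691 genes of both deposited tables and among the 12283 genes tested. The cells were erythroblasts of C57BL/6J mice, taken from fetal liver as cells without the late erythroid antigen TER119 and grown in medium with erythropoietin (Epo). The CDs group (3 libraries) received carbon dots (CDs, nanometre-sized carbon particles, here made from Codonopsis pilosula) at 1 ug/ml for 30 h, and the untreated group (3 libraries) did not. The gestational age is not given in the sources used here, and nothing in the labels ties a replicate to its own litter or culture, so that each p-value reflects the spread of these libraries alone, which may be technical. Both groups are numbered 1 to 3.

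GATA1 is the zinc finger factor that opens and drives the erythroid genes, and it takes over chromatin sites that GATA2 holds in progenitors, a step known as the GATA switch. In red cell precursors GATA1 sits in a complex in which TAL1, a basic helix-loop-helix factor, is joined to GATA1 by the bridging protein LMO2 and the dimerizing adaptor LDB1, which also loops enhancers to promoters. ZFPM1 (FOG1) is the cofactor that GATA1 needs for many of its target genes, KLF1 binds CACCC boxes of the globin and membrane protein genes, NFE2 binds the globin locus control region, GFI1B is a repressor that recruits histone demethylase, and BCL11A silences embryonic globin genes.

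Promoter sequences are shown for Gata1, Gata2, Klf1 and Gfi1b, because factors of this set are known to act on each other's genes. A further reason was that Gata1 and Gata2 levels ran in opposite directions from number 1 to number 3 within both groups. In number 3 both genes were lower with CDs. The sequences are the bases before the RefSeq start site in GRCm38.p6 that no GENCODE M21 exon covers, written 5′ to 3′ on the gene's strand. The windows are chrX:7967911-7968160 (minus strand) for Gata1, chr6:88193641-88193890 (plus) for the upstream start of Gata2, chr8:84901732-84901927 (plus) for Klf1 and chr2:28621983-28622232 (minus) for Gfi1b. The Gata1 start used, at 7967910, lies inside the annotated gene (7959260 to 7976663) and is not its outermost start. Capitals mark matches on either strand to the GATA letters (AGATAA or AGATAG or TGATAA or TGATAG) and to the KLF letters CCNCNCCC.
Gata1: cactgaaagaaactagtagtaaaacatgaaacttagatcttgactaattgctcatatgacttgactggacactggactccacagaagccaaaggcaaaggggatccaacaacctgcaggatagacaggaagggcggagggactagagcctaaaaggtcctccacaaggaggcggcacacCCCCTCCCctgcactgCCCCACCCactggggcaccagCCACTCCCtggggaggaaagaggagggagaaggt
Gata2: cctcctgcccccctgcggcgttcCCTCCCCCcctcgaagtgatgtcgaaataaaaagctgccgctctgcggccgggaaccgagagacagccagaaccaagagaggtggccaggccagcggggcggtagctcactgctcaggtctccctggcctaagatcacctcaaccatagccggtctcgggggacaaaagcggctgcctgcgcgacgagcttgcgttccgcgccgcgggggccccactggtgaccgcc
Klf1: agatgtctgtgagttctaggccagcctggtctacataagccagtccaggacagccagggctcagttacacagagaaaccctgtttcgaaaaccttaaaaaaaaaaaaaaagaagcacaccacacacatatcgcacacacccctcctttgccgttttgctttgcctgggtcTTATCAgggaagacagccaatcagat
Gfi1b: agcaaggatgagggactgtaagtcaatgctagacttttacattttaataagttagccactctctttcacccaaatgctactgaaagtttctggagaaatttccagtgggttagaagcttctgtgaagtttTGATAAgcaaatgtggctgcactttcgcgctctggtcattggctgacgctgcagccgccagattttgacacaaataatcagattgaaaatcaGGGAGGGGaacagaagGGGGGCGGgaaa
The Gata1 window held 3 KLF matches, at positions -71, -55 and -34 counted from the start site, and no GATA match. The Klf1 window held 1 GATA match on the opposite strand (position -80), the Gfi1b window 1 GATA match (position -120) and 2 KLF matches, and the Gata2 window 1 KLF match. Among the 250 bases before each of 32851 start sites, GATA letters occurred in 26.5% and KLF letters in 45.9%, and some KLF matches overlap each other in GC-rich sequence. The matches describe letters only. Of the 10 genes 8 had an entry in the promoter table, and Nfe2 and Lmo2 had none.

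The libraries held 17695997 to 20066581 expected counts. Erythroid markers (9 of 10 in the table, with Hba-a1 the most abundant) summed to 61031 to 72377 CPM (a gene count relative to its TMM-scaled library size) in untreated and 56656 to 71621 CPM in CDs libraries. Markers of other cell types were present as well, with macrophage markers (13 of 13 in the table, 0 of them at 0 counts in all 6 libraries) summing to 150, 438 and 3456 CPM in untreated 1 to 3 and 338, 1380 and 4251 CPM in CDs 1 to 3. The libraries numbered 3 had the highest first principal component scores, 74.6 in untreated 3 and 95.7 in CDs 3. CDs 2 lay between, at 14.9, and untreated 1, CDs 1 and untreated 2 were at -87.1, -52 and -46.2. Deviations from the group mean correlated within a number (0.91, 0.345 and 0.938 over all genes tested), and values are therefore given by number as well as by group. The same correlation was not computed between libraries of unlike numbers, so that pairing by number is an assumption. In bulk RNA, fewer cells of a type and less RNA per cell cannot be told apart.

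In the fits without a term for the number no factor gene passed the threshold. Such fits carry the whole spread between libraries, with a common coefficient of variation of 0.485 in edgeR, against 0.112 with that term. A lack of calls there does not show that the genes were unchanged. With the term, the fits disagreed on 3 genes, as given in the next paragraph. The libraries numbered 3 were the lowest of their group in 9 of the 10 genes (40.8% of all genes) and the highest in Gata2 (41% of all genes). Of the 10 genes 9 had a log2 fold change below 0, against 48.1% of all genes tested, but 0 of 10 passed the edgeR quasi-likelihood test without a term for the number (adjusted p from 0.994 to 0.999). Over all genes that test called 0 of 12283 (0%), with 127 (1.03%) at an unadjusted p under 0.05 and 0 of the 10 factor genes among these. DESeq2 without the number called 14 of 12277 genes (0.114%) and limma-voom 0, again with no factor gene. The untreated and CDs libraries overlapped in all 10 genes, while groups did not overlap in 2.33% of all genes in the lower and 2.37% in the higher direction.

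By number, Ldb1, Gfi1b, Bcl11a and Klf1 were lower in the CDs library of all 3 pairs (4 of 10 genes, against 26.2% of all genes), and 0 of 10 were higher in all 3 (30.2% of all genes). With the number as a term DESeq2 called Ldb1, Gfi1b and Bcl11a lower (3 of 10, against 2.35% of all genes) and 0 of 10 higher (8.72% of all genes), whereas edgeR and limma-voom with it called 0 of 10 (5 genes in all, 0.0407%, and 6 genes, 0.0488%), with 4 of 10 at an unadjusted p under 0.05 in edgeR against 29.9% of all genes. At an adjusted p under 0.10 edgeR with the number reached Ldb1 and Gfi1b (2 of 10, against 3.13% of all genes in the lower direction), and limma-voom reached these and Bcl11a (3 of 10, against 4.16%). The factor genes were below their partner in 4 of 10 cases in number 1, 8 of 10 in number 2 and 10 of 10 in number 3, where 43.7%, 50.3% and 50.4% of all genes were lower.

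**Figure D1:**
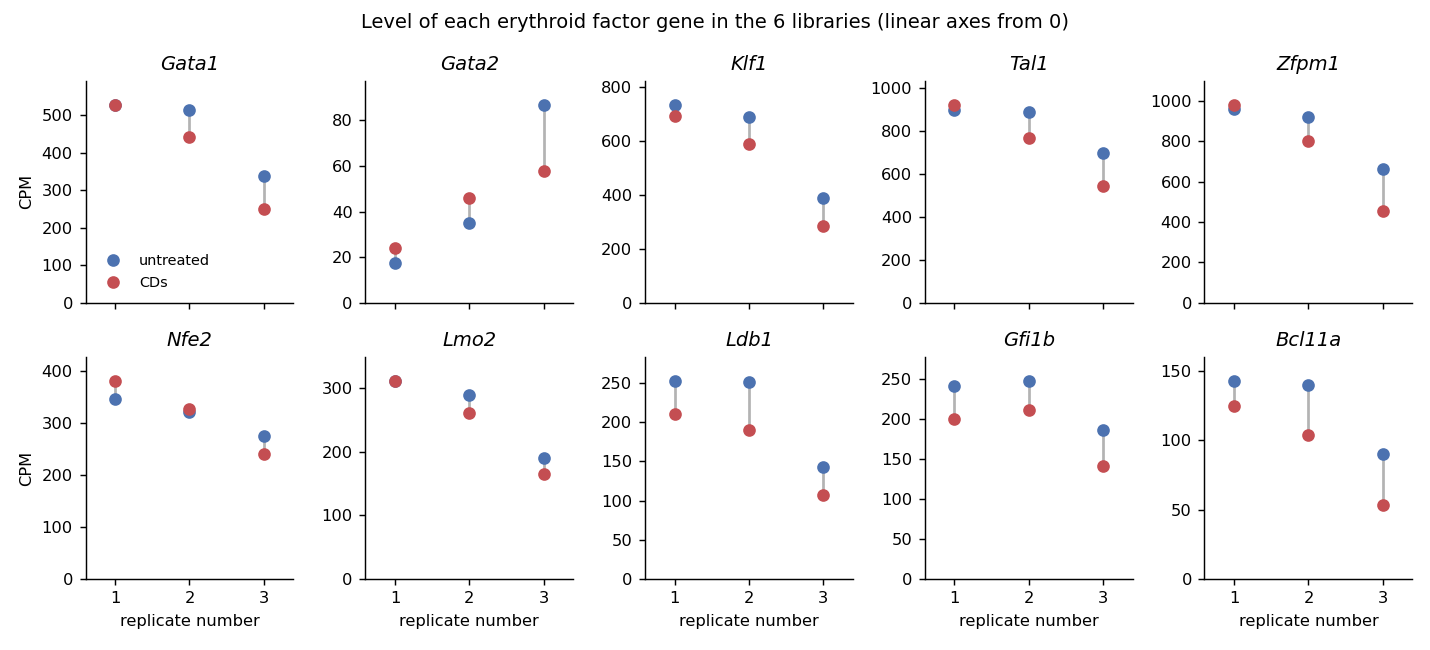
CPM (TMM-scaled) of the 10 factor genes by replicate number, with untreated (blue) and CDs (red) libraries joined within a number. In 9 genes the libraries numbered 3 are the lowest of their group, and in Gata2 they are the highest.

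Gata1 (Entrez 14460, chromosome X, 7959260 to 7976663), the master activator of the erythroid program, measured 528, 513 and 339 CPM in untreated 1 to 3 and 528, 441 and 249 CPM in CDs 1 to 3. The pair numbered 1 was level and the library CDs 3 was the lowest of all 6. The log2 fold change was -0.18 ± 0.34 (SE, n = 3 against 3, edgeR adjusted p = 0.994), and without CDs 3 it was 0.07, so its sign rests on that library. Within numbers 1 to 3 the log2 differences were 0.0013, -0.22 and -0.44.

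Gata2 (Entrez 14461, chromosome 6, 88193891 to 88207032), the GATA factor of stem cells, progenitors and mast cells, ran the other way. It measured 17.3, 35.0 and 86.8 CPM in untreated 1 to 3 and 24.1, 45.8 and 57.8 CPM in CDs 1 to 3. The CDs library was higher in numbers 1 and 2 (log2 differences of 0.48 and 0.39) and lower in number 3 (-0.59), and the spread of 5.01-fold between the highest and the lowest library was the widest of the 10 genes. The fold change had no steady sign, at -0.12 ± 0.65 (SE) without and 0.07 ± 0.25 with the number in the edgeR fit (adjusted p = 0.994 and 0.871). Without the libraries numbered 3, edgeR with the number called Gata2 higher (0.41, adjusted p = 0.0175; range over all alternatives 0.0175 to 1), where 12.2% of all genes were called higher, and DESeq2 did not (0.43, adjusted p = 0.206).

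The ratio of Gata1 to Gata2 within a library, taken from FPKM (fragments scaled by transcript length and library size, so that the level of one gene can be set against another), needs no scaling between libraries. Untreated 1 to 3 gave 53.6, 25.8 and 6.86, and CDs 1 to 3 gave 38.3, 16.8 and 7.58. Number 1 had the highest and number 3 the lowest ratio in either group, a range of 7.81-fold, and the groups overlapped fully. On the log2 scale the mean was 4.40 ± 1.50 (SD, n = 3) untreated and 4.08 ± 1.17 (SD, n = 3) with CDs, a difference of -0.32 smaller than either SD (two-sided exact permutation p = 0.8, smallest possible 0.1). By number the log2 ratio differed by -0.49, -0.62 and 0.14 (exact sign-flip p = 0.5, smallest possible 0.25), lower with CDs in numbers 1 and 2 and slightly higher in number 3. Leaving out 1 library turned the difference positive in 2 cases, without CDs 3 (0.26) and without untreated 1 (0.35), and moved it to -0.91 without CDs 1, -1.13 without untreated 3 and -0.18 without untreated 2. It was -0.56 without both libraries numbered 3 and -0.17 without both numbered 2.

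**Figure D2:**
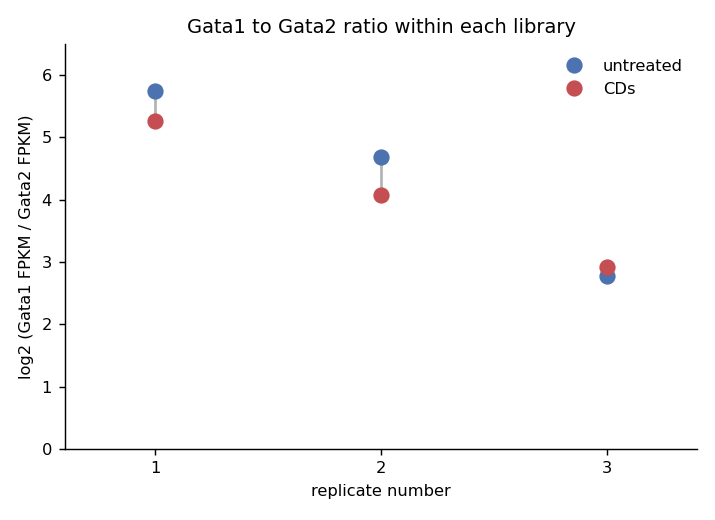
Log2 ratio of Gata1 to Gata2 FPKM by replicate number, untreated (blue) and CDs (red), joined within a number. The ratio is lower with CDs in numbers 1 and 2, by 0.49 and 0.62, and the libraries numbered 3 lie lowest, at 2.78 and 2.92.

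Markers of mast cells and basophils, cells in which Gata2 is active, moved with Gata2. Their summed level (8 of 9 markers in the table, 5 tested, Hdc the most abundant) was 26.6, 65.6 and 222 CPM in untreated 1 to 3 and 37.0, 88.6 and 149 CPM in CDs 1 to 3. The 6 libraries stood in the same order for this sum as for Gata2 (15 of 15 library pairs). Most other non-erythroid lists came near this order, so it was not particular to mast cell markers. It held in 14 pairs for macrophage and for granulocyte markers. Endothelial, stem and progenitor, and lymphoid and plasmacytoid markers kept it in 13, hepatocyte markers in 12 and megakaryocyte markers in 7. Hdc and Cpa3 are also in the list of GATA2 phase genes used below. The log2 difference between CDs and untreated was 0.48, 0.43 and -0.58 in numbers 1 to 3, beside 0.48, 0.39 and -0.59 for Gata2. Gata2 divided by the marker sum gave 0.65, 0.534 and 0.391 for untreated 1 to 3, and 0.652, 0.517 and 0.388 for CDs 1 to 3, so that partners lay closer together than numbers did. Cpa3, the mast cell carboxypeptidase, measured 9.97, 18.2 and 58.1 CPM untreated and 14.1, 28.4 and 34.9 CPM with CDs, and Tpsb2, a mast cell tryptase, was at 0 in 5 of 6 libraries. The part of such cells in the Gata2 values was not tested.

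The other lists of non-erythroid markers had log2 differences in number 3 from -0.08 to 0.60, and their part in the Gata2 values was not tested. The sums of 6 lists (macrophage, endothelial, stem and progenitor, granulocyte, hepatocyte, and lymphoid and plasmacytoid markers) were higher with CDs in all 3 numbers, with log2 differences in number 3 of 0.30, 0.60, 0.32, 0.04, 0.42 and 0.08. Stem and progenitor markers (10 of 10 in the table) summed to 27.0 to 311 CPM in untreated and 50.0 to 389 CPM in CDs libraries. Megakaryocyte markers, of a lineage that shares most of these factors, were at 112 to 117 CPM in untreated and 108 to 159 CPM in CDs libraries, with log2 differences of 0.47, 0.45 and -0.08. Granulocyte markers ranged from 280 to 2219 and from 397 to 2275 CPM, endothelial markers from 13.7 to 229 and from 36.6 to 347 CPM, hepatocyte markers from 229 to 517 and from 352 to 691 CPM, and lymphoid and plasmacytoid markers from 58.4 to 85.7 and from 62.4 to 90.6 CPM. None of the markers in the table was at 0 counts in all 6 libraries.

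**Figure D3:**
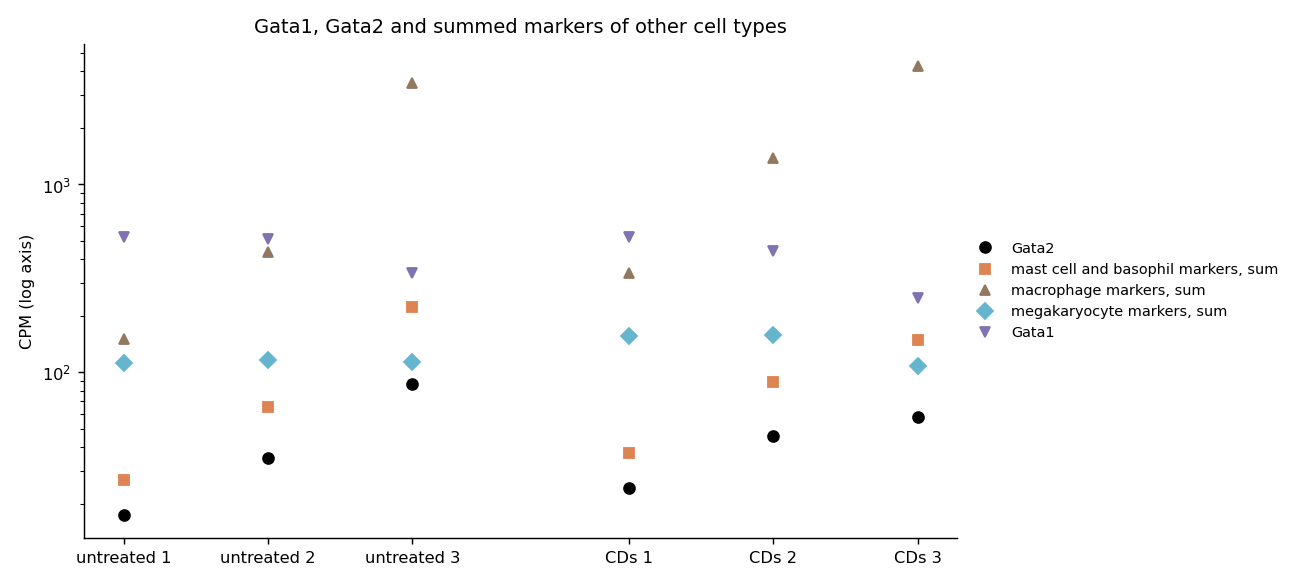
Level of Gata1 and Gata2 and summed level of 3 marker lists in each library (CPM, log axis). Gata2 and the mast cell and basophil sum keep the same order over the 6 libraries, highest in untreated 3 at 86.8 and 222 CPM.

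The genes of the bridging complex, Tal1, Lmo2 and Ldb1, were below 0 in the fit and did not pass without the number. Tal1 (chromosome 4, 115056426 to 115071755) measured 897, 887 and 695 CPM in untreated 1 to 3 and 920, 767 and 541 CPM in CDs 1 to 3 (log2 fold change of -0.15 ± 0.24, SE). Lmo2 (chromosome 2, 103957903 to 103981878) measured 311, 290 and 190 CPM untreated and 312, 261 and 165 CPM with CDs (-0.10 ± 0.31). In both the CDs library was level in number 1 and lower in numbers 2 and 3, and both turned positive without CDs 3 (0.03 and 0.12).
Ldb1 (chromosome 19, 46031525 to 46048145) measured 253, 251 and 143 CPM in untreated 1 to 3 and 211, 190 and 107 CPM in CDs 1 to 3. All 3 CDs libraries were below their partners by similar amounts, -0.26, -0.40 and -0.41 on the log2 scale, while the groups overlapped because untreated 3 was low. The log2 fold change was -0.35 ± 0.35 (SE) without and -0.36 ± 0.06 with the number in edgeR (adjusted p = 0.994 and 0.0916), and DESeq2 with the number called it (-0.38 ± 0.10, adjusted p = 0.00461; range over all alternatives 0.00461 to 1). Of the 4606 exonic bases of Ldb1 in GENCODE M21, 177 are shared with Pprc1 on the opposite strand, and reads there cannot be told apart without strand.

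Zfpm1, the FOG1 gene (chromosome 8, 122281856 to 122337862), measured 957, 918 and 664 CPM in untreated 1 to 3 and 980, 801 and 456 CPM in CDs 1 to 3. It kept to Gata1 more closely than any other of the 10 genes, with an FPKM ratio to Gata1 between 0.986 and 1.08 in the 6 libraries. The log2 fold change was -0.18 ± 0.33 (SE, edgeR adjusted p = 0.994), and 0.07 without CDs 3.

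Klf1 (chromosome 8, 84901982 to 84905291), the activator of adult beta globin, measured 735, 689 and 388 CPM in untreated 1 to 3 and 694, 590 and 285 CPM in CDs 1 to 3. It was lower in all 3 pairs, by -0.08, -0.22 and -0.44, and its distance between the libraries numbered 3 and the others was the largest downward one of the 10 genes (log2 of -0.87 in untreated and -1.17 in CDs). With the number as a term the log2 fold change was -0.25 ± 0.08 (SE, edgeR adjusted p = 0.129; DESeq2 adjusted p = 0.112), which did not pass.

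Nfe2 (chromosome 15, 103248212 to 103258403), the p45 subunit of NF-E2, was the steadiest of the 10 genes. It measured 347, 322 and 275 CPM in untreated 1 to 3 and 381, 327 and 240 CPM in CDs 1 to 3, a spread of 1.59-fold. The log2 fold change was 0.0059 ± 0.21 (SE, edgeR adjusted p = 0.999), and its sign turned under other scalings (-0.01 with DESeq2 size factors, -0.009 with upper-quartile factors).

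The repressor genes Gfi1b and Bcl11a had, with Ldb1, the log2 fold changes farthest below 0 among the 10 genes (-0.29, -0.40 and -0.35 without the number). Gfi1b (chromosome 2, 28609450 to 28621982) measured 241, 248 and 187 CPM in untreated 1 to 3 and 200, 212 and 141 CPM in CDs 1 to 3. The differences were alike in the 3 numbers, at -0.27, -0.23 and -0.41, and CDs 2 and CDs 1 lay above untreated 3. DESeq2 with the number called it lower (-0.32 ± 0.10, SE, adjusted p = 0.0181; range over all alternatives 0.0181 to 1), and edgeR with the number did not (-0.30 ± 0.06, adjusted p = 0.0916).
Bcl11a (chromosome 11, 24076564 to 24173558) measured 143, 140 and 90.2 CPM in untreated 1 to 3 and 125, 104 and 53.5 CPM in CDs 1 to 3. The differences by number were -0.19, -0.43 and -0.75, the lowest of any factor gene in numbers 2 and 3. DESeq2 with the number called it lower (-0.47 ± 0.15, SE, adjusted p = 0.017; range over all alternatives 0.0123 to 1), and edgeR with the number did not (-0.46 ± 0.11, adjusted p = 0.103). Of its 13175 exonic bases 316 are shared with the antisense gene 4930538E20Rik. The deposited counts and FPKM of Bcl11a differ between libraries by an RMS of 0.0546 on the log2 scale, more than in 94.2% of 8834 genes compared, while the other 9 factor genes lie between 0.00101 and 0.0154 (median over genes 0.00553).

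These 3 calls depended on the libraries used. In DESeq2 with the number, 0 of 10 factor genes passed when any one pair was left out (0.609%, 2.4% and 7.42% of all genes passed without numbers 1, 2 and 3). In edgeR with the number, Ldb1, Gfi1b and Bcl11a passed without number 2 (adjusted p = 0.0324, 0.0314 and 0.0466, where 2.32% of all genes were called lower) and without number 3 (adjusted p = 0.00647, 0.033 and 0.0123, where 2.97% were), and 0 genes passed without number 1. The summed macrophage markers were higher with CDs by log2 differences of 1.17, 1.66 and 0.30 in the same pairs. The log2 of that sum was also fitted as a covariate in place of the number. The log2 fold changes were then -0.12 ± 0.15 (SE) for Ldb1, -0.18 ± 0.14 for Gfi1b and -0.22 ± 0.17 for Bcl11a. None of these 3 passed in edgeR (adjusted p = 0.999 each), where 33 of all 12283 genes passed. The 6 libraries stood in the same order for that sum as for the first principal component score. The covariate can therefore not be told apart from other differences between libraries. The part of macrophages in these calls was not tested.

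**Figure D4:**
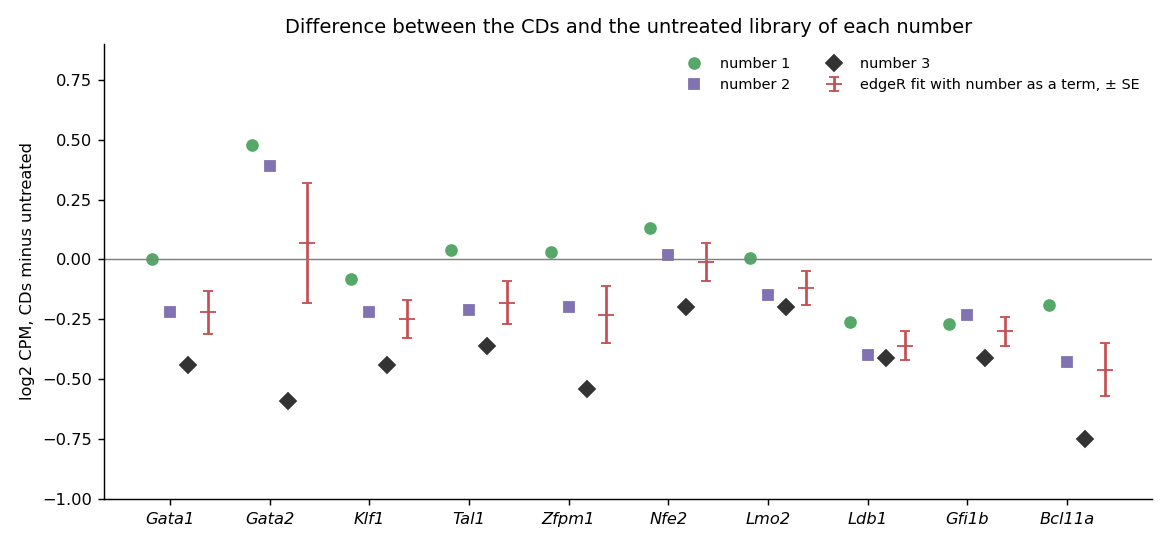
Log2 difference in CPM between the CDs and the untreated library of each number for the 10 factor genes, with the edgeR estimate that has the number as a term (red, ± SE). Ldb1, Gfi1b, Bcl11a and Klf1 lie below 0 in all 3 numbers, and Gata2 lies above 0 in numbers 1 and 2 and at -0.59 in number 3.

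Levels per length were set against each other in FPKM. Klf1 was the most abundant factor transcript in all 6 libraries, with a mean of 388 ± 113 FPKM (SD, n = 3) untreated and 341 ± 131 with CDs. Zfpm1 (240 ± 40 and 215 ± 72 FPKM) and Gata1 (237 ± 49.1 and 213 ± 69.8 FPKM) followed and were not separated, since Zfpm1 was above Gata1 in 4 of 6 libraries. Nfe2 (197 ± 18.2 and 201 ± 38.7 FPKM) and Tal1 (191 ± 21.5 and 174 ± 40 FPKM) overlapped too, with Nfe2 higher in 5 of 6 libraries. Below them came Lmo2 (167 ± 37.5 and 158 ± 44.4 FPKM), Gfi1b (125 ± 15.8 and 104 ± 19.0 FPKM) and Ldb1 (98.8 ± 26.0 and 78.6 ± 22.8 FPKM), in this order in 6 of 6 libraries although their ranges overlap. Bcl11a (40.7 ± 7.18 and 31.1 ± 10.8 FPKM) and Gata2 (13.8 ± 11.1 and 12.9 ± 5.44 FPKM) were the scarcest, and their ranges did not overlap within either group. The order of the group means was the same in untreated and CDs libraries.

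Set against Gata1 in the same library, 8 of the 9 other genes varied by 1.09-fold (Zfpm1) to 1.56-fold (Nfe2) between the lowest and the highest library, and Gata2 by 7.81-fold, while Gata1 itself spanned 2.12-fold in CPM. Klf1 stood at 1.74, 1.67 and 1.43 times Gata1 untreated and at 1.64, 1.67 and 1.43 times with CDs (libraries 1 to 3), lowest in both libraries numbered 3. Nfe2 was at 0.802, 0.754 and 0.988 untreated and 0.869, 0.895 and 1.18 with CDs, and Tal1 at 0.758, 0.771 and 0.918 untreated and 0.776, 0.776 and 0.971 with CDs, highest in the libraries numbered 3. Bcl11a was at 0.165, 0.172 and 0.18 of Gata1 untreated and at 0.144, 0.154 and 0.139 with CDs. Its 3 CDs ratios lay below its 3 untreated ones, as they did for 68 of 12213 genes (0.557%, and 2.96% in either direction), and this was noticed after the values were seen. Ldb1 (0.381 to 0.431 untreated, 0.349 to 0.387 with CDs) and Gfi1b (0.49 to 0.593 and 0.407 to 0.605) overlapped between groups.

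**Figure D5:**
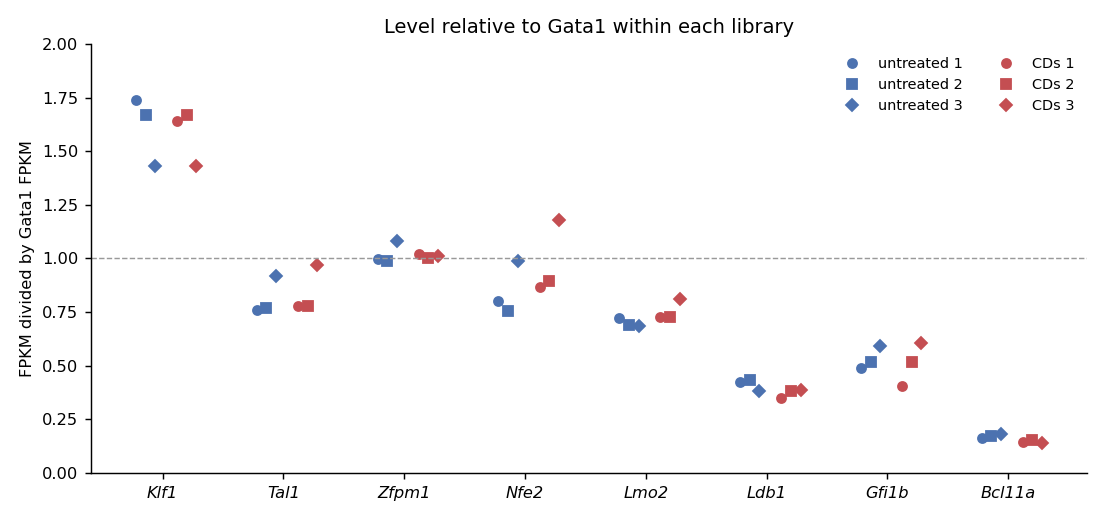
FPKM of 8 factor genes divided by Gata1 FPKM in the same library, untreated (blue) and CDs (red), with the symbol giving the replicate number. Zfpm1 stays between 0.986 and 1.08, and the 3 CDs values of Bcl11a lie below its 3 untreated values.

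The cofactors and further factors of the pathway gave no call in edgeR, with or without the number. Of 28 complex cofactors, such as the TAL1 partners, the LDB1-binding SSBP proteins and the NuRD and CoREST subunits, 20 had a log2 fold change below 0 and 8 above 0 (median -0.07, beside 0.01 over all genes tested and -0.18 over the 10 factor genes). Over all genes 48.1% were below 0. In all, 10 of the 28 were lower and 5 higher in all 3 numbers (26.2% and 30.2% of all genes). None passed DESeq2 with the number, which called 2.35% of all genes lower and 8.72% higher. Mbd2, a methyl-CpG binding subunit of NuRD, measured 239 ± 10.7 CPM (SD, n = 3) untreated and 215 ± 9.26 with CDs (edgeR log2 fold change of -0.15 ± 0.11, SE, adjusted p = 0.994). Its groups did not overlap, as in 2.33% of all genes in the lower direction, and it was picked for its small unadjusted p among the 28. Hdac1, a histone deacetylase, measured 139 ± 5.03 and 127 ± 8.27 CPM, and Maff, a small MAF protein, 2.03 ± 0.531 and 2.71 ± 0.439 CPM.

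Of 20 other erythroid factors 14 had values above 0 (median 0.11), as had 6372 of all 12283 genes. Of the 20, 11 were higher in all 3 numbers, against 30.2% of all genes. DESeq2 with the number called 1 higher (Bach1, a heme-regulated repressor) and 1 lower, against 8.72% and 2.35% of all genes. The lower one, E2f4, a cell cycle factor that KLF1 acts on, measured 428 ± 94.7 CPM (SD, n = 3) untreated and 358 ± 105 with CDs (DESeq2 with the number, -0.30 ± 0.10, SE, adjusted p = 0.0335). Myb, a progenitor factor, measured 18.5, 17.9 and 15.4 CPM in untreated 1 to 3 and 21.4, 25.7 and 17.5 CPM in CDs 1 to 3. Runx1 measured 66.1 ± 27.3 and 83.9 ± 21.0 CPM and Stat5a, an effector of the erythropoietin receptor, 15.9 ± 2.70 and 18.2 ± 1.30 CPM, and none of these 3 passed.

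Of the 16 factors of other lineages 12 were tested, and all 12 had values above 0 (median 0.51), as had 6372 of all 12283 genes. Of the 12, 9 were higher in all 3 numbers, against 30.2% of all genes. DESeq2 with the number called 4 of the 12 higher (Fli1, Spi1, Cebpa and Irf8), against 8.72% of all genes. Fli1, an ETS factor of megakaryocytes and endothelium, measured 3.98, 7.37 and 36.8 CPM in untreated 1 to 3 and 8.30, 19.1 and 54.2 CPM in CDs 1 to 3, higher in each pair (DESeq2 with the number, 0.96 ± 0.22, SE, adjusted p = 0.000837). Meis1 measured 1.83 ± 0.994 CPM (SD, n = 3) and 2.79 ± 0.599 CPM, and Runx3 15 ± 2.61 and 16.6 ± 3.33 CPM, neither of which passed. Spi1 (PU.1), the myeloid factor that opposes GATA1, measured 16.4, 35.3 and 219 CPM untreated and 31.6, 99.4 and 268 CPM with CDs, higher in each pair. Spi1 and Fli1 were lowest in untreated 1 and highest in CDs 3, as the macrophage marker sum given above was, while Runx3 was lowest in CDs 3. The part of macrophages in these values was not tested.

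Genes that the factors act on gave 0 calls in edgeR. Over all genes 48.1% had a log2 fold change below 0, and DESeq2 with the number called 2.35% lower. Of the GATA1 activated genes 23 of 24 were in the table (Ahsp was not analysed here), 16 with values below 0 (median -0.05), and DESeq2 with the number called 1 lower, the adhesion molecule Icam4 (130 ± 36.7 CPM, SD, n = 3, untreated and 108 ± 35.2 with CDs, -0.31 ± 0.10, SE, adjusted p = 0.0328). Rhag, the Rh-associated glycoprotein (711 ± 102 and 632 ± 120 CPM), and Slc25a38, the mitochondrial glycine carrier of heme synthesis (152 ± 36.1 and 129 ± 36.9 CPM), did not pass. Of 23 tested KLF1 dependent genes, which share members with that list, 16 were below 0 (median -0.05) and DESeq2 with the number called 3 lower, E2f4, Icam4 and Tfr2, transferrin receptor 2 (90.0 ± 20.1 and 72.7 ± 20.5 CPM, -0.34 ± 0.12, adjusted p = 0.0368).

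Of 11 genes active in the GATA2 phase 6 had values above 0 (median 0.09), as had 6372 of all 12283 genes. DESeq2 with the number called 2 of the 11 higher (Cd34 and Vim), against 8.72% of all genes. Cd34, a progenitor and endothelial antigen, measured 8.01, 11.9 and 53.0 CPM in untreated 1 to 3 and 21.2, 53.8 and 82.8 CPM in CDs 1 to 3 (DESeq2 with the number, 1.38 ± 0.28, SE, adjusted p = 0.000101). Kit, the stem cell factor receptor, measured 12 ± 3.13 and 15 ± 2.76 CPM and did not pass.

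The embryonic beta-like globins, which BCL11A silences, did not pass in any fit given here. Hbb-bh1 measured 61.1, 25.8 and 13.4 CPM in untreated 1 to 3 and 76.2, 34.2 and 17.0 CPM in CDs 1 to 3. It was higher with CDs in each pair by near-equal amounts (0.32, 0.40 and 0.33), with a log2 fold change of 0.35 ± 0.07 (SE) in edgeR with the number (adjusted p = 0.0916) and 0.34 ± 0.13 in DESeq2 (adjusted p = 0.0828). Hbb-y measured 3.77, 3.94 and 1.86 CPM untreated and 3.55, 6.49 and 2.60 CPM with CDs, and Hbb-bh2 lay between 0.453 and 0.744 CPM in all 6 libraries. These genes have close relatives in the beta globin cluster, between which reads could be divided.

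The genes most like Gata1 and Gata2 across the 6 libraries were taken by Pearson's r of log2 CPM among 8174 genes with a mean of at least 10 CPM. For Gata1 they were Hs6st1, a heparan sulfate sulfotransferase (r = 0.9999), Mecr, a mitochondrial enoyl reductase (0.9994), and Podxl, a sialomucin (0.9993). For Gata2 they were Alox5, arachidonate 5-lipoxygenase (0.9960), Cpa3 (0.9947) and Stx11, a syntaxin (0.9912). Alox5 measured 8.27, 16.0 and 41.4 CPM in untreated 1 to 3 and 12.8, 21.1 and 28.2 CPM in CDs 1 to 3, with the same order of libraries as Gata2. The 6 points share libraries and depth, the first principal component held 88.7% of the variance, and the correlations are descriptions.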

How the data were processed

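Polyadenylated RNA of 6 libraries was read from one end over 50 bases, per the labels' protocols, which name no step that marks strand. The submitters' processing notes name RSEM 1.2.12, HISAT2 2.0.4, DESeq2 1.4.5, Bowtie2 2.2.5 and the build GRCm38.p6, with no role or order. One deposited table holds expected counts per gene (30.1% of values not whole), rounded here to whole numbers. The second one deposited has FPKM values (the unit was inferred from the numbers), used for ratios between genes and as an alternative. Entrez numbers matched the RefSeq annotation for 17570 of 17691 genes, and 24 symbols changed by a spreadsheet were restored.

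Genes were filtered with filterByExpr (12283 kept, holding 99.9% of counts). TMM factors were used with edgeR 4.0.16 in R 4.3.3 (quasi-likelihood, robust), with treatment as the only term and Benjamini-Hochberg adjustment over all genes tested (threshold 0.05). Alternatives were DESeq2 1.42.0, limma 3.58.1 (voom, and log2 of FPKM plus 1 or 0.1), other scalings, no filter, a macrophage marker covariate, the replicate number as a term (replicate block) and libraries left out. The genes DESeq2 tested were those that edgeR kept. Numbers were taken to pair libraries because the correlation of deviations from the group means was above 0.1 in all 3 (0.91, 0.345 and 0.938). No such correlation was computed between libraries of unlike numbers, and deviations within a group of 3 depend on each other. The correlations therefore do not show that the libraries were paired, and the fits with the number rest on that assumption. The script was tested on simulated counts with planted changes larger than those of the factor genes. That test does not show whether changes of their size would be found. Scipy 1.17.1 gave the exact permutation tests.

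The members and lists were chosen with earlier results of these data known. The text names all 10 factor genes, the 3 genes with the smallest unadjusted p of each other pathway list, the detected embryonic globins and the 3 genes most like Gata1 and Gata2. Spi1, Tpsb2, Bach1, Cebpa, Irf8 and Vim were named after their values were seen. Promoters are from RefSeq, GRCm38.p6.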

Additional observations from a re-analysis of the deposited data

How the results depend on the processing

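Counts of genes past the threshold were 0 in edgeR without the replicate block and moved to 14 with DESeq2, 33 with the macrophage marker covariate, 5 with the replicate block in edgeR (5 also with library totals, upper-quartile or DESeq2 size factors), 6 with it in limma-voom and 1201 with it in DESeq2. With the block and numbers 1, 2 or 3 left out they were 0, 899 and 1835 in edgeR and 40, 232 and 858 in DESeq2. Of the 10 factor genes 0 passed without the block under any alternative run, and with the replicate block 3 passed in DESeq2 and 0 in edgeR. With the block and number 1, 2 or 3 left out, 0, 0 and 0 passed in DESeq2 and 0, 3 and 4 in edgeR. The Gata1 to Gata2 log2 ratio difference ran from -1.13 to 0.35 with libraries left out, and was -0.32 in the sign-flip test with the replicate block. Ldb1, Gfi1b and Bcl11a kept a value below 0 in all 31 alternatives (-0.57 to -0.10, -0.42 to -0.13 and -0.67 to -0.12). Gata1, Klf1, Tal1, Zfpm1 and Lmo2, with lowest values of -0.42, -0.47, -0.34, -0.43 and -0.31 with libraries left out, turned positive without CDs 3 (0.07, 0.09, 0.03, 0.07 and 0.12), Klf1 and Lmo2 with the macrophage covariate (0.04 and 0.09) and Lmo2 without untreated 1 (0.04). The cause was not tested. Gata2 (-0.52 to 0.70) turned positive in 14 of 31 alternatives: the replicate block in edgeR (0.07, and 0.05, 0.09 and 0.05 with other scalings) and DESeq2 (0.07), limma-voom (0.10), FPKM fits (0.12, 0.10 and 0.10), and without CDs 1 (0.16), untreated 3 (0.70) or number 3 (0.40, and 0.41 and 0.43 with the block). Nfe2 turned negative in 19 of 31: DESeq2 (-0.01, and -0.03 with the replicate block), its size factors (-0.01), limma-voom (-0.01, and -0.01 with the block), edgeR with the block (-0.01, and -0.03 with other scalings), upper-quartile factors (-0.009), no filter (-0.0074) and with libraries left out (-0.16 to 0.17, with the block -0.09, -0.05 and -0.04). The block fits with a number left out or with another scaling were chosen after seeing the data. The lowest count of a factor gene in any library was 335 (Gata2).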
